A study of Mus musculus with 6 samples.

Results

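The genes described here are the neurotrophins Bdnf and Ntf3 with their receptors Ntrk2, Ntrk3 and Ngfr, and the glial cell line-derived neurotrophic factor gene Gdnf with its receptors Gfra1, Gfra2 and Ret. They were taken by symbol from the deposited count table, which held all 9 among its 23478 genes. The table holds RNA-seq of 6 sorted samples from the mouse trachea at E13.5 (embryonic day 13.5), 3 of muscle and 3 of epithelium. All 6 are labelled as controls of the genotype Bmp4 f/f; gamma SMA eGFP, so both groups carry floxed alleles of Bmp4, and the labels name no Cre. Muscle cells were those with GFP from the gamma smooth muscle actin reporter, and epithelial cells were those stained with an APC antibody to Epcam. The labels do not say whether the libraries of a group came from separate embryos or pools, so the p-values measure the spread between these libraries. Nerves were not sorted, and innervation itself was not measured.

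Neurotrophins are secreted proteins that keep developing neurons alive and guide their axons to target tissue. Brain-derived neurotrophic factor (Bdnf) acts mainly through the receptor tyrosine kinase TrkB (Ntrk2), and neurotrophin-3 (Ntf3) through TrkC (Ntrk3), while Ngfr encodes a receptor that binds all neurotrophins. GDNF binds the membrane-anchored co-receptor Gfra1, neurturin binds Gfra2, and both complexes signal through the kinase Ret. In the gut, GDNF from mesenchyme draws Ret-expressing neural crest cells inward, and in the airway, smooth muscle is a known source of BDNF for the nerves that reach it.

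Library totals ran from 11847432 to 54848820 counts. Levels are given as CPM, the usual unit of counts relative to the library total, scaled between libraries by the trimmed mean of M-values. Replicate 2 of each group stood apart. Muscle replicate 2 had a summed CPM of 4137 over 10 smooth muscle markers, against 16896 and 17829 in the other muscle libraries. Epithelium replicate 2 had 2117 over 10 fibroblast and cartilage markers, against 674 and 429. Counts in 1449 olfactory and vomeronasal receptor genes, which belong to sensory neurons of the nose, summed to 1792 CPM by library total in epithelium replicate 2, 871 in muscle replicate 2, 627 in epithelium replicate 3 and at most 36.5 elsewhere. The identifiers in the file header, read here as dates, place both libraries numbered 2 on day 3 and the other 4 on day 16 of month 9.

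Of the 9 genes, all passed the filter on low counts and 4 were higher in muscle at an adjusted p under 0.05: Bdnf, Ntf3, Ntrk2 and Ntrk3. None was higher in epithelium by that test (edgeR), although Ret had an unadjusted p of 0.020, and 1 was by the Wald test of DESeq2. Among the 19375 genes tested, 10.7% passed in either direction, 6.58% higher in muscle and 4.11% higher in epithelium. The muscle libraries all lay above the epithelial ones in 5 of the 9 genes, against 16.4% of all tested genes, and the epithelial libraries all lay above in 1, Ret, against 10.5%. The median log2 fold change, muscle over epithelium, was 1.83 over the 9 genes and -0.10 over all genes tested. The 9 genes were chosen with earlier results of these data known, so these contrasts describe the set and do not test it.

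**Figure D1:**
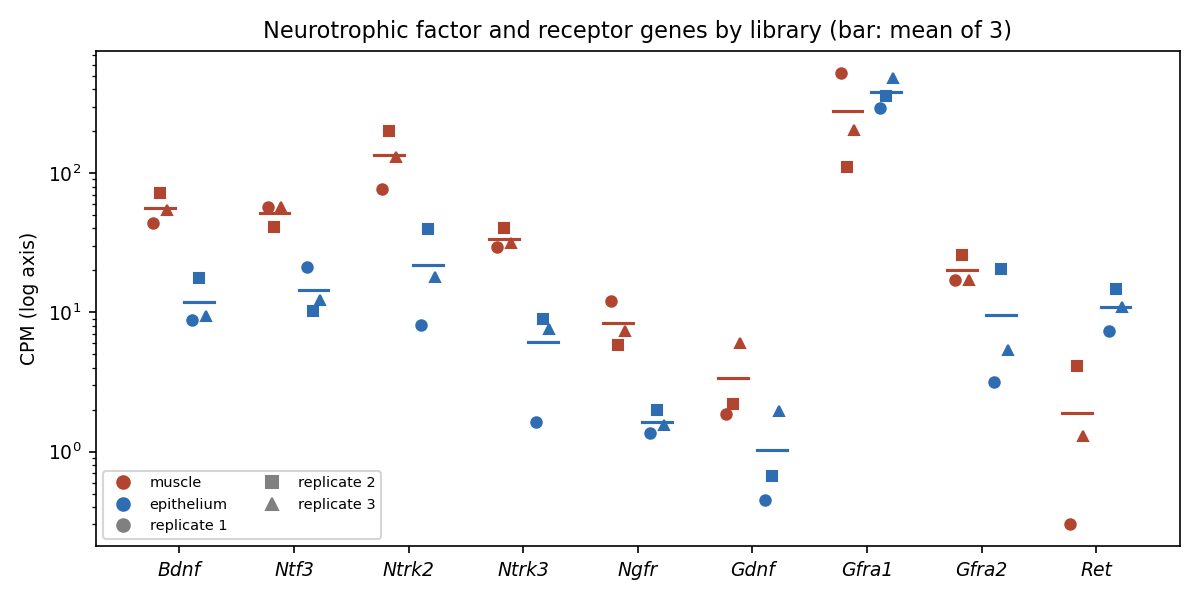
CPM of each gene (log axis) in the 3 muscle (red) and 3 epithelial (blue) libraries, with replicate shown by point shape and the mean as a bar. Bdnf, Ntf3, Ntrk2, Ntrk3 and Ngfr show muscle libraries above all epithelial ones, and Ret shows the reverse.

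Both neurotrophin ligand genes were more abundant in muscle. Bdnf (chr2:109674700-109727007, plus strand, GRCm38) had 43.7, 71.4 and 54.0 CPM in muscle and 8.81, 17.6 and 9.43 in epithelium, always in the order of replicates 1, 2 and 3. The lowest muscle library was thus well above the highest epithelial one. The means were 56.4 ± 14.0 CPM (SD, n = 3) and 12.0 ± 4.93, which is 4.74-fold, or 2.24 ± 0.34 (SE) in log2 units (adjusted p = 0.0038, edgeR). Ntf3 (chr6:126101412-126166910, minus strand) had 57.4, 41.2 and 57.0 CPM in muscle and 21.0, 10.3 and 12.3 in epithelium. Its groups did not overlap either, and its means of 51.8 ± 9.23 and 14.5 ± 5.70 CPM gave a log2 fold change of 1.83 ± 0.32 (adjusted p = 0.0071), or 3.55-fold. Ntf3 was still at 21.0 CPM in epithelium replicate 1, from 1131 counts, so the gene was detected in both populations. In these bulk libraries fewer cells that express a gene and less RNA per cell cannot be told apart. Both ligand genes passed in each of 15 alternative analyses, with an adjusted p of up to 0.032 for Bdnf and 0.048 for Ntf3. On the later header date alone, with 2 libraries per group, the log2 fold changes were 2.35 and 1.70 (adjusted p = 0.0028 and 0.016). The annotated gene Gm45346 overlaps an exon of Bdnf, and whether counting used strand is not given in the sources used here.

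The catalytic receptor genes of these ligands were also higher in muscle. Ntrk2 (chr13:58806569-59133970, plus strand) had 76.9, 199 and 130.0 CPM in muscle and 8.07, 39.9 and 17.8 in epithelium. Muscle was higher in every library, but both groups spread widely, and replicate 2 was the highest of each. Its means were 135 ± 61.4 and 21.9 ± 16.3 CPM (SD, n = 3), and the difference was 2.64 ± 0.58 in log2 units (adjusted p = 0.020, edgeR). Without epithelium replicate 2 it was 3.40 (adjusted p = 0.0042). The call was lost without muscle replicate 2 (2.26, adjusted p = 0.053), muscle replicate 3 (2.68, 0.055) or epithelium replicate 3 (2.43, 0.11). It held on the later header date alone (2.93, adjusted p = 0.012). The share of all tested genes called was 10.7% as reported. It was 12.8% without muscle replicate 2, 6.92% without muscle replicate 3 and 5.78% without epithelium replicate 3. Ntrk3 (chr7:78175959-78738012, minus strand) had 29.3, 40.4 and 31.2 CPM in muscle and 1.62, 9.02 and 7.62 in epithelium. The muscle libraries of Ntrk3 lay close together, whereas epithelium replicate 1 was far below the other epithelial libraries. The means of Ntrk3 were 33.6 ± 5.97 and 6.09 ± 3.93 CPM, differing by 2.48 ± 0.56 in log2 units (adjusted p = 0.021). Ntrk3 did not pass without epithelium replicate 3 (2.60, adjusted p = 0.062) or on the later header date alone (2.65, adjusted p = 0.062). Both genes make a full-length kinase and truncated forms without a kinase domain, and counts per gene do not separate these.

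Ngfr (chr11:95568818-95587735, minus strand), also known as a marker of basal cells and of Schwann cells, had 12.0, 5.84 and 7.33 CPM in muscle and 1.36, 2.00 and 1.54 in epithelium. Every muscle library was above every epithelial one, and the epithelial libraries were alike. Its means of 8.39 ± 3.22 and 1.63 ± 0.334 CPM gave a log2 fold change of 2.36 ± 0.69, with a 95% interval from 0.80 to 3.92 before adjustment, and an adjusted p of 0.064. It passed in 5 of 15 alternatives, among them the fit without muscle replicate 2 (adjusted p = 0.042), which held the fewest Ngfr counts of the muscle libraries (117), and the fit on the later header date alone (2.66, adjusted p = 0.027). It missed when any 1 of the other 5 libraries was left out, with an adjusted p of 0.47 without muscle replicate 1, 0.22 without muscle replicate 3 and 0.27 without epithelium replicate 3.

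**Figure D2:**
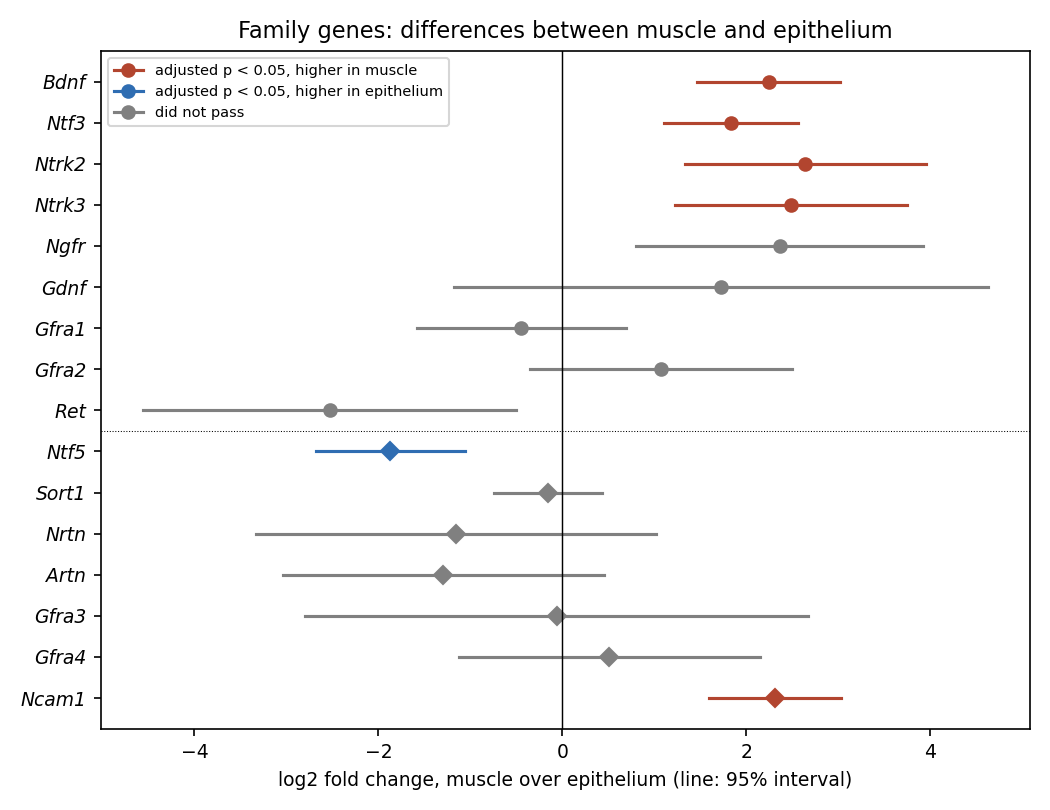
Log2 fold change of muscle over epithelium with its 95% interval, for the 9 genes (circles) and for 7 related genes of both families (diamonds), coloured where the adjusted p was under 0.05. Bdnf, Ntf3, Ntrk2, Ntrk3 and Ncam1 lie to the muscle side and Ntf5 to the epithelial side, while the intervals of Gdnf, Gfra1 and Gfra2 include 0.

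The promoters of the genes that were higher in muscle are shown because these genes differed in the same direction. RefSeq entries (GRCm38.p6) were found for 6 of the 9 genes, Bdnf, Ntf3, Ntrk2, Ngfr, Gdnf and Gfra1. The 250 bases before each start were searched on both strands for TATAAA, a form of the TATA box that helps to place the start of many transcripts. They were also searched for GGGCGG, the GC box that Sp1 and related factors bind. The full cyclic AMP response element, TGACGTCA, was a further motif. Its core TGACG, which the full element contains, was searched for separately, and so was the CArG box bound by serum response factor. Of 32851 such windows over all genes, 12.4% held the TATA box, 32.7% the GC box, 1.55% the full cyclic AMP element, 17.8% its core and 1.47% a CArG box. Bdnf has 7 starts in the table. The window of start 3 holds a TGACG match whose first base is 35 bases before the start, read as CGTCA on the gene's strand. Both windows of Ntf3 hold 1 GGGCGG match, 45 and 101 bases before the start, and the single window of Ntrk2 holds none of the 5 motifs. Other Bdnf windows, those of starts 2 and 4, hold the GC box. The TATA box, the full cyclic AMP element and the CArG box are in none of the windows of these 3 genes. Among the uncalled genes searched, start 1 of Gdnf has TATAAA 31 bases and a TGACG match 50 bases before the start. The window of Ngfr holds 4 GGGCGG matches, and those of Gdnf start 2 and Gfra1 hold none of the 5 motifs. The TGACG core was thus not limited to genes called in muscle. Windows of Bdnf, Ntf3 and Ntrk2 follow, 5′ to 3′ on the gene's strand, with matches in capitals. That Bdnf window was picked for its match after all 7 had been searched, and counts per gene do not tell which start was in use.
Bdnf, start 3 of 7 (chr2:109692186-109692435, plus strand): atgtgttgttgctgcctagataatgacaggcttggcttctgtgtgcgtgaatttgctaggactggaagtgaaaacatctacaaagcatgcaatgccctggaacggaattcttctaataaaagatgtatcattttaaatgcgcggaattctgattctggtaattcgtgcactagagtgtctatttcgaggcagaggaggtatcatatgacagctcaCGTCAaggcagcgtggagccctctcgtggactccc
Ntf3, start 1 of 2 (chr6:126166745-126166994, minus strand): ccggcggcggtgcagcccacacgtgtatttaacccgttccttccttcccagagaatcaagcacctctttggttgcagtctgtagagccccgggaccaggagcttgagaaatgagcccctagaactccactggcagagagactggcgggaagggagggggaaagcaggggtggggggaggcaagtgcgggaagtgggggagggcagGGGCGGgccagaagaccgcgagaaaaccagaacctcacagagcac
Ntf3, start 2 of 2 (chr6:126164961-126165210, minus strand): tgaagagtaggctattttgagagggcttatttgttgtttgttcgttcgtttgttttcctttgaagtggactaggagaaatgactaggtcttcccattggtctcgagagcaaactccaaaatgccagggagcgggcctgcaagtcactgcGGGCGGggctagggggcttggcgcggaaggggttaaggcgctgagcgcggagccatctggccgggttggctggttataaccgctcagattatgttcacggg
Ntrk2 (chr13:58806319-58806568, plus strand): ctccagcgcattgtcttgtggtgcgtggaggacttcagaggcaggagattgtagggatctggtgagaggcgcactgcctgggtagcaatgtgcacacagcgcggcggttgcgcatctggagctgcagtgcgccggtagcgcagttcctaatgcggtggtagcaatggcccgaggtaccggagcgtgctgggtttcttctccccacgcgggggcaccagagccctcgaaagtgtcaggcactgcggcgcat

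The GDNF genes gave no difference that passed. Gdnf (chr15:7810846-7837575, plus strand), the ligand, was near the lower end of detection, with 1.86, 2.20 and 6.07 CPM in muscle and 0.446, 0.668 and 1.95 in epithelium. Muscle replicate 3 was the highest, and the lowest muscle library lay under the highest epithelial one. Its log2 fold change was 1.72 ± 1.28 (95% interval from -1.18 to 4.62, adjusted p = 0.59, edgeR), an estimate resting on as few as 10 counts in epithelium replicate 2. Gdnf passed in none of the alternatives that gave an adjusted p (0.25 at the lowest).

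Gfra1 (chr19:58235604-58455909, minus strand), the GDNF co-receptor, had 520.2, 110.0 and 205 CPM in muscle and 295, 359.6 and 484 in epithelium. The muscle libraries enclosed the epithelial ones. The means were 279 ± 215 and 379 ± 96.1 CPM (SD, n = 3), with a log2 fold change of -0.45 ± 0.50 (95% interval from -1.58 to 0.69, adjusted p = 0.81, edgeR). The estimate was -1.25 without muscle replicate 1 and -0.06 without muscle replicate 2, so it depends on these libraries, and neither value passed (adjusted p = 0.12 and 0.93). The annotated gene Gm16277 overlaps an exon of Gfra1, and whether counting told their reads apart is not given in the sources used here.

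Gfra2 (chr14:70890120-70979838, plus strand), the neurturin co-receptor, had 17.1, 25.8 and 17.1 CPM in muscle and 3.16, 20.3 and 5.33 in epithelium. Epithelium replicate 2 alone reached the muscle range. Its log2 fold change was 1.07 ± 0.63 (95% interval from -0.35 to 2.49, adjusted p = 0.42). Without epithelium replicate 2 it was 2.23 (adjusted p = 0.012), and on the later header date, which leaves out both libraries numbered 2, it was 1.93 (adjusted p = 0.030). It was 0.67 without epithelium replicate 1 and 0.70 without epithelium replicate 3 (adjusted p = 0.60 and 0.91), and 11 of 15 alternatives did not pass.

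Ret (chr6:118151745-118197718, minus strand), the shared signalling receptor, was the gene of the 9 whose epithelial libraries all lay above the muscle ones. It had 0.304, 4.09 and 1.29 CPM in muscle, from 8, 82 and 51 counts, and 7.34, 14.6 and 10.9 CPM in epithelium, from 395, 218 and 291 counts. No muscle library reached the epithelial range, and replicate 2 was the highest of each group. The means were 1.90 ± 1.97 and 10.9 ± 3.61 CPM (SD, n = 3). The log2 fold change of -2.53 ± 0.89 did not pass (95% interval from -4.56 to -0.51 before adjustment, adjusted p = 0.12, edgeR). Ret passed in 6 of 15 alternatives, among them the fit without muscle replicate 2 (-3.75, adjusted p = 0.017) and the later header date alone (-3.57, adjusted p = 0.041), and it missed in the other 9, with an adjusted p of up to 0.33. 

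Levels were compared between genes after division by the annotated exon length (GENCODE M21, all exons merged). In muscle the order from high to low was Gfra1 (50.8 CPM per kb), Ntf3 (30.3), Bdnf (9.07), Ntrk2 (7.01), Gfra2 (5.65), Ngfr (2.43), Ntrk3 (1.11), Gdnf (0.919) and Ret (0.280). The libraries of neighbours in this order overlapped except between Ntf3 and Bdnf, Gfra2 and Ngfr, and Ngfr and Ntrk3. In epithelium the order was Gfra1 (69.3), Ntf3 (8.48), Gfra2 (2.71), Bdnf (1.92), Ret (1.62), Ntrk2 (1.14), Ngfr (0.474), Gdnf (0.278) and Ntrk3 (0.202). There, Gfra1 stood apart from Ntf3 and Ntf3 from Gfra2, and all later neighbours overlapped. Ntrk2 and Ntrk3 have long annotated exons, of 19292 and 30170 merged bases. By the median length of coding transcripts (3049 and 2726 bases), Ntrk2 had 44.4 CPM per kb in muscle, second after Gfra1, and Ntrk3 had 12.3. Gfra1 thus ranked first by either length in both populations, Ret ranked last in muscle by either length, and the ranks of both Trk genes depended on the length used.

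**Figure D3:**
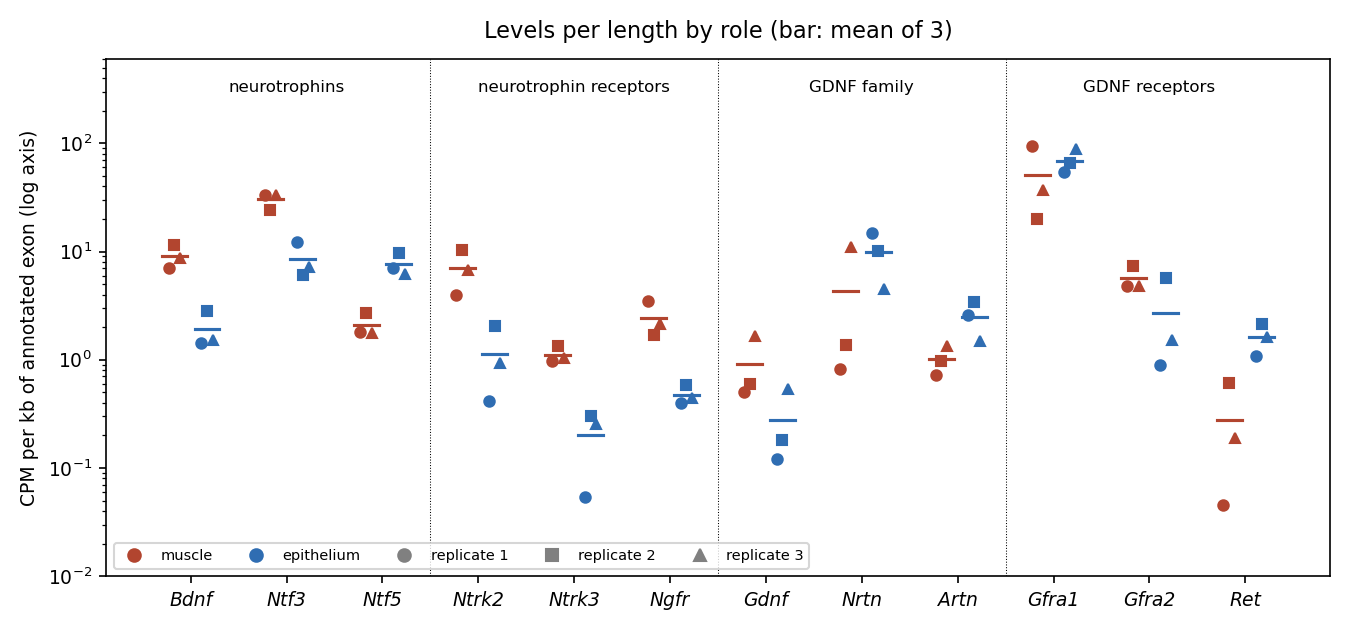
CPM per kb of merged annotated exon (log axis) for ligands and receptors of both families, by library, with the mean of each group as a bar. Gfra1 is the highest receptor gene in both populations, Ntf3 the highest ligand gene in muscle, and Ntf5 and Nrtn reach the level of Ntf3 in epithelium.

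Other ligands of the families were not all on the muscle side. Of 6 further neurotrophin ligand and receptor genes reported here, 2 passed toward epithelium and none toward muscle (edgeR). Over all tested genes, 4.11% passed toward epithelium and 6.58% toward muscle. Ntf5, which encodes neurotrophin-4, the other TrkB ligand, had 4.79, 7.19 and 4.63 CPM in muscle and 18.5, 25.9 and 16.4 in epithelium. All epithelial libraries were above all muscle ones, and the difference of -1.87 ± 0.36 in log2 units (adjusted p = 0.011) passed in each of the 15 alternatives. Both TrkB ligand genes were therefore called, in opposite directions. Sort1, which encodes the proneurotrophin co-receptor sortilin, differed by less than its SE (-0.16 ± 0.26, adjusted p = 0.90). The related sorting receptor gene Sorl1 was higher in epithelium (-3.26 ± 0.34, adjusted p = 0.00072).

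Of 9 further genes of the GDNF family and its receptors, 1 was higher in muscle and none in epithelium. The shares of all tested genes were 6.58% and 4.11%. Ncam1, a neural adhesion molecule that can bind GDNF together with Gfra1, had 239, 162 and 206 CPM in muscle and 39.0, 56.1 and 27.4 in epithelium. Every muscle library was above the epithelial ones, by 2.31 ± 0.32 in log2 units (adjusted p = 0.0023, edgeR). The annotated gene Gm11149 shares exon sequence with Ncam1 and has a row of its own in the table. The neurturin gene Nrtn had 0.836, 1.40 and 11.2 CPM in muscle and 15.2, 10.4 and 4.58 in epithelium, so muscle replicate 3 lay within the epithelial range (-1.16 ± 0.96, adjusted p = 0.67). Without that library the difference was -3.16 (adjusted p = 0.085). The artemin gene Artn had 1.75, 2.35 and 3.24 CPM in muscle and 6.21, 8.29 and 3.57 in epithelium, without overlap, and did not pass (-1.30 ± 0.77, adjusted p = 0.43). The persephin gene Pspn was at most 1.17 CPM in any library. The co-receptor genes Gfra3 (-0.06 ± 1.21) and Gfra4 (0.51 ± 0.72) had adjusted p of 0.99 and 0.87.

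Most other pathway genes passed in neither direction. Over 81 tested genes of 7 lists outside the 9 members, 7 passed toward muscle and 7 toward epithelium, 67 passed in neither, and the median log2 fold change was 0.16. Of all tested genes, 6.58% and 4.11% passed toward muscle and epithelium. The muscle libraries all lay above in 22 of the 81 and the epithelial ones in 14, against 16.4% and 10.5% of all tested genes. Among 10 tested genes of neurotrophin processing, Plat was called, at 2.28 ± 0.26 (adjusted p = 0.0010, edgeR) toward muscle. It encodes tissue plasminogen activator, which starts the plasmin cleavage of pro-BDNF. Among 25 adaptor genes of Trk and Ret kinases, 2 were higher in muscle, Dok5 (2.34 ± 0.33, adjusted p = 0.0025) and Shc1 (1.45 ± 0.30, adjusted p = 0.016), and 1 in epithelium, Grb7 (-7.27 ± 1.04, adjusted p = 0.0028). Dok5 and Grb7 encode adaptors that can bind Ret, and Shc1 couples many receptor kinases to Ras. The call of Shc1 was lost without muscle replicate 1, muscle replicate 3 or epithelium replicate 3 (adjusted p = 0.064, 0.057 and 0.080). Among 8 tested partners of Ngfr, Bex1 was higher in epithelium (-2.44 ± 0.43, adjusted p = 0.0074).

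Of 11 tested feedback and target genes of Ret and Trk signalling, 3 were higher in epithelium and none in muscle at an adjusted p under 0.05, where 4.11% and 6.58% of all tested genes passed. The 3 were Arc (-3.79 ± 0.45, adjusted p = 0.0012, edgeR), Spry1 (-1.73 ± 0.28, adjusted p = 0.0048) and Egr1 (-1.89 ± 0.46, adjusted p = 0.030). Spry1 restrains receptor kinases such as Ret and FGF receptors, and Arc and Egr1 are immediate early genes that many stimuli induce, including tissue dissociation. Egr1 did not pass without muscle replicate 1 (adjusted p = 0.11), without epithelium replicate 3 (0.066) or on the later header date alone (0.10). For 3 others of the list, every muscle library was above every epithelial one without passing, against 16.4% of all tested genes. They were Spry4 (2.74 ± 0.84, adjusted p = 0.076), which also restrains receptor kinases, and the transcription factor genes Etv1 (2.11 ± 0.64, adjusted p = 0.071) and Etv5 (1.43 ± 0.40, adjusted p = 0.051). Dusp6 (-0.61 ± 0.23, adjusted p = 0.14) and Etv4 (-0.93 ± 1.67, adjusted p = 0.91) lay the other way without overlap and without passing. With the 3 called genes, the epithelial libraries all lay above in 5 of the 11, against 10.5% of all tested genes. Of 12 tested neurotrophic cytokine and receptor genes reported here, 3 passed toward muscle and none toward epithelium. Every muscle library was above in 7 of the 12, against 16.4% of all tested genes, and every epithelial library in none, against 10.5%. Ptn, which encodes pleiotrophin, averaged 929.8 ± 50.6 CPM in the muscle libraries and 178 ± 76.5 in the epithelial ones (SD, n = 3, 2.38 ± 0.34, adjusted p = 0.0026). The leukaemia inhibitory factor receptor gene Lifr (1.44 ± 0.29, adjusted p = 0.014) and its signalling partner Il6st (1.40 ± 0.29, adjusted p = 0.014) were higher in muscle, and both lost their call without epithelium replicate 3 (0.066 and 0.070). Il6st also lost it without muscle replicate 1 (0.060).

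Markers of neurons and of neural crest and glia were measured beside these results. The crest and glia regulator Sox10 had 2.55, 6.59 and 3.19 CPM in muscle and 2.60, 10.4 and 3.12 in epithelium (-0.39 ± 0.83, adjusted p = 0.92, edgeR). It was highest in the libraries numbered 2, where the sensory receptor genes averaged 0.531 CPM each in muscle and 0.979 in epithelium. The neuronal genes Tubb3 (-1.27 ± 0.80, adjusted p = 0.47) and Elavl4 (-0.03 ± 0.44, adjusted p = 0.99) did not pass. Over 19 neuron markers the summed level was 126 to 164 CPM in muscle and 206 to 304 in epithelium, and over 13 crest and glia markers 210.2 to 670.3 and 362 to 371. A few genes carried these sums. Isl1 (166 CPM) and Uchl1 (81.6) made up most of the neuron sum in epithelium replicate 1, and Ednrb (634) most of the crest and glia sum in muscle replicate 1. No marker of either list was at 0 in all 6 libraries. Foxd3 and Dhh were at 0 counts in at least 1, and Phox2a, Prph and Th were at 0 in muscle replicate 1. Over 10 neuroendocrine markers the sums were 28.8 to 44.9 CPM in muscle and 36.4 to 47.0 in epithelium, and none of 9 tested passed (edgeR). Of these 9, 2 had every muscle library above, Calca (2.09 ± 0.81, adjusted p = 0.16) and Grp (3.93 ± 2.17, 0.38). For 1, Ddc (-1.06 ± 0.29, 0.052), every epithelial library was above. The shares of all tested genes were 16.4% and 10.5%. Of 12 tested crest and glia markers, Ednrb was higher in muscle (4.64 ± 0.88, adjusted p = 0.011), and Mbp, Sox2 and Erbb3 were higher in epithelium. Ednrb lost its call without muscle replicate 1, epithelium replicate 1 or epithelium replicate 3 (adjusted p = 0.056, 0.064 and 0.053), and with the receptor-gene covariate (0.14) or the replicate block (0.069). Of 18 tested neuron markers, Uchl1 and Isl1 were higher in epithelium and none in muscle at an adjusted p under 0.05. The shares of all tested genes were 4.11% and 6.58%. For 5 of the 18, Stmn2, Nefl, Nefm, Dcx and Hand2, every muscle library was nonetheless above every epithelial one, against 16.4% of all tested genes. Their log2 fold changes ran from 0.84 (Dcx) to 2.11 (Hand2), and the lowest adjusted p was 0.091, for the neurofilament gene Nefl (12.8, 15.4 and 13.6 CPM in muscle and 7.99, 2.81 and 3.04 in epithelium). Isl1 lost its call without muscle replicate 2, muscle replicate 3 or epithelium replicate 1 (adjusted p = 0.060, 0.10 and 0.070). Sox2, Erbb3 and Isl1 are also expressed by foregut epithelium. The part of these cell types in the levels of Ret, Ngfr and the Trk genes was not tested.

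Markers of fibroblasts and cartilage, over 10 genes, summed to 6678 to 9172 CPM in the muscle libraries and 429 to 2117 in the epithelial ones. Of the 10, 6 were higher in muscle (edgeR). Among these, Col1a1 passed in 6 of 15 alternatives, Col3a1 in 10 and Col9a1 in all 15. Over all tested genes, 6.58% passed toward muscle and 4.11% toward epithelium. RNA of these marker genes was thus present in the GFP-sorted samples. Over 8 skeletal and oesophageal muscle markers the sums were 1637, 403 and 1679 CPM in muscle and 9.70, 181 and 78.0 in epithelium, and 2 passed toward muscle, Actc1 and Des, which smooth or embryonic muscle can also express. The skeletal muscle regulator Myog had 245, 1.20 and 17.3 CPM in muscle and 0, 3.34 and 1.28 in epithelium, and Myod1 had 62.1, 0.499 and 3.82 and 0, 1.47 and 0.977, so both were high in muscle replicate 1 and overlapped between the groups. Basal cell markers, over 7 genes, summed to 1.74 to 15.6 CPM in muscle and 77.7 to 183 in epithelium, and 3 of them were higher in epithelium. Trp63, the basal cell regulator, had 0.988, 5.14 and 0.531 CPM in muscle and 71.8, 65.6 and 40.3 in epithelium, opposite in direction to Ngfr. Endothelial markers summed to 68.1 to 94.0 CPM in muscle and 2.10 to 63.9 in epithelium, and immune markers to 3.19 to 49.6 and 4.31 to 42.9. Replicate 2 was the highest muscle library for 5 of the 9 genes (Bdnf, Ntrk2, Ntrk3, Gfra2 and Ret) and the lowest for Ntf3, Ngfr and Gfra1. In epithelium replicate 2 was the highest for 6, those 5 and Ngfr, and replicate 1, the library with the fewest sensory receptor counts, was the lowest for 8. The order of replicates was not counted over all tested genes, so it cannot be called particular to these 9. The part of cells behind the fibroblast and skeletal muscle marker RNA, and of the sensory receptor counts, in these levels was not tested. A fit with the summed receptor-gene level as a covariate, chosen after seeing the data, called 6 of the 9 genes toward muscle and 1 toward epithelium, where 15.3% of all tested genes passed.

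**Figure D4:**
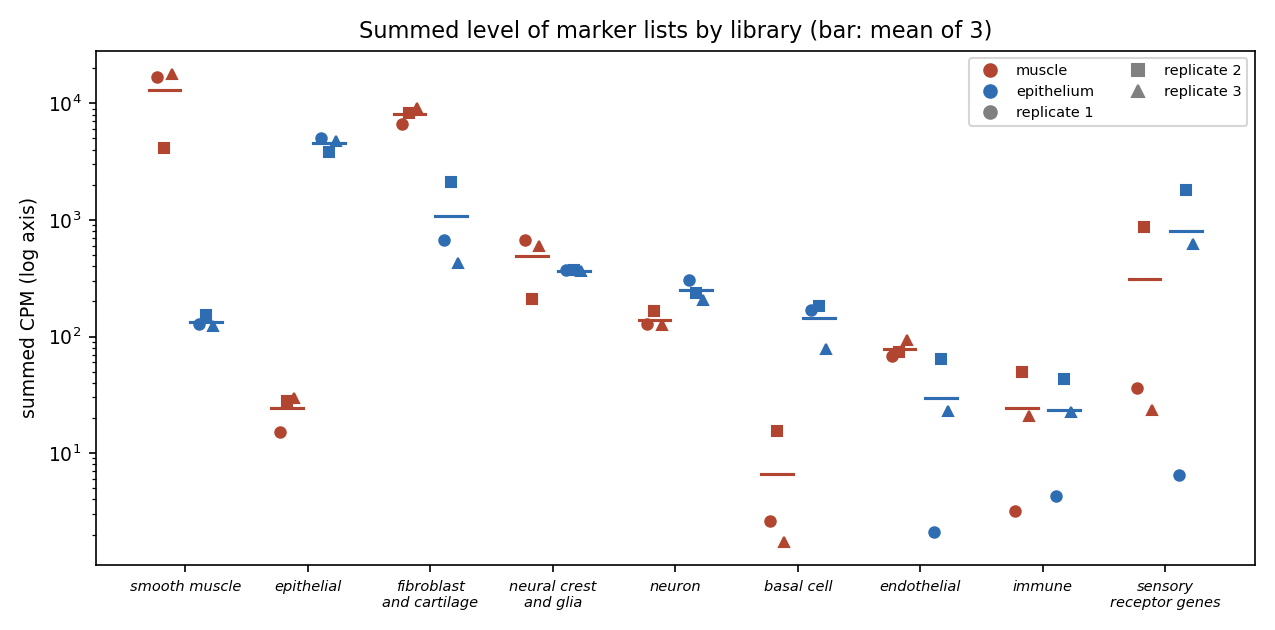
Summed CPM (log axis) of 8 marker lists and of the sensory receptor genes in each library, with the mean of each group as a bar. The smooth muscle list is lowest among muscle libraries in replicate 2, and the fibroblast list and the receptor genes are highest among epithelial libraries in replicate 2.

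The genes most like each called member were found by the mean absolute difference of centred log2 CPM over the 6 libraries. Nearest to Bdnf were Adora2a (0.12), Pdlim2 (0.14) and Fkbp14 (0.14). Nearest to Ntf3 were Scara3 (0.09), Col4a2 (0.10) and Pcdhgc3 (0.10). Nearest to Ntrk2 were Fam101a (0.18), Papss2 (0.18) and Sema6d (0.19), and to Ntrk3 they were Cyp7b1 (0.15), Ebf3 (0.17) and Stard8 (0.18). Among the members themselves the smallest differences were between Ntf3 and Ngfr (0.36) and between Ntrk2 and Ntrk3 (0.37). Of these 12 genes, 10 were higher in muscle at an adjusted p under 0.05, while Adora2a (0.20) and Stard8 (0.055) did not pass. The 6 libraries share the split into muscle and epithelium, so the measure rests largely on it.

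**Figure D5:**
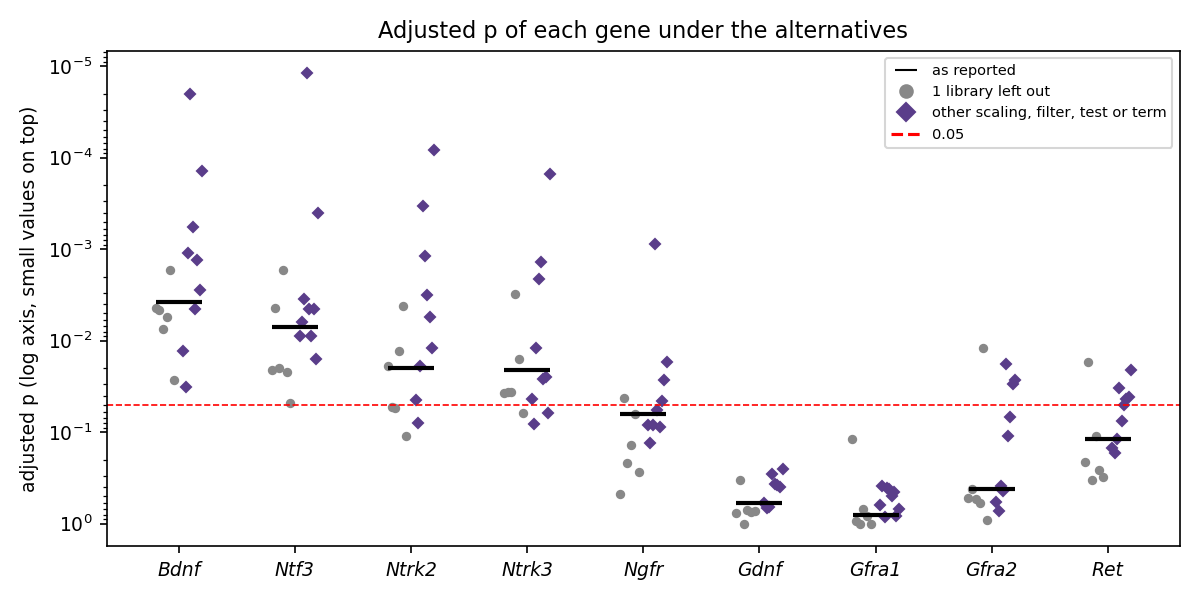
Adjusted p (log axis, small values on top) of each gene as reported (black bar), with 1 library left out (grey circles) and under other scalings, filters, tests or added terms (purple diamonds), with the threshold of 0.05 as a dashed line. Bdnf and Ntf3 stay above the line throughout, Ntrk2, Ntrk3, Ngfr, Gfra2 and Ret cross it, and Gdnf and Gfra1 stay below.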

How the data were processed

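The authors deposited whole-number counts per gene symbol, with no normalization. The submitters' processing notes name Trim Galore, Bowtie2, Cufflinks and DESeq and the build mm10, which is GRCm38, and the counting program and annotation are not given in the sources used here. Per the labels' protocols, cells were dissociated with TrypLE, RNA was extracted with Trizol, and libraries were made with SMART-Seq v4 and Nextera XT, so counts include PCR copies. Even numbers made up 73.8% to 79.6% of low counts (1 to 19) and 49.4% to 50.6% of counts of 100 or more, and the cause was not tested.

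Libraries were grouped by title. Counts were filtered with filterByExpr and tested with edgeR 4.0.16 in R 4.3.3 (quasi-likelihood, two-sided, TMM, robust, without covariates). Adjustment was Benjamini-Hochberg over the 19375 genes that passed the filter. SE values derive from the test statistic. The test was tried on simulated data first. An exact permutation test of 3 against 3 cannot go below 0.10. The alternatives were DESeq2 1.42.0, limma-voom (limma 3.58.1), other scalings, no filter, a replicate block, the header date and leaving out each library, and a receptor-gene covariate added after seeing the data. The members and lists were chosen with earlier results of these data known. The genes named were the 9 members, 11 family and marker genes and, per list, up to 3 called genes per direction whose libraries did not overlap (average log2 CPM 1 or more). The promoter windows, and Stmn2, Nefl, Nefm, Dcx, Hand2, Calca, Grp, Ddc, Spry4, Etv1, Etv5, Dusp6, Etv4, Myog and Myod1, were picked after their values were seen. Some genes of the lists are not reported here and were left out of list counts and sums.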

Additional observations from a re-analysis of the deposited data

How the results depend on the processing

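Bdnf, Ntf3, Ntf5 and Ncam1 passed in all 15 alternatives, and no member changed direction in any. The members higher in muscle numbered 4 as reported and 2 with library size only, where Ntrk2 (adjusted p = 0.080) and Ntrk3 (0.081) did not pass. That scaling shifted the median log2 fold change of all genes from -0.10 to -0.33 and the share of calls that were higher in muscle from 61.5% to 42.0%. Leaving out 1 library gave 2 to 5 members in muscle, 2 of them without epithelium replicate 3, and 0 to 1 in epithelium. Ret was the member called in epithelium, 1 in each case, with DESeq2 (adjusted p = 0.033), the replicate block (0.050 when rounded, just under the threshold), the header date as a term (0.043), the later header date only (0.041) and the receptor-gene covariate (0.021). The causes were not tested. Ngfr also passed with DESeq2 (0.00089), and Gfra2 with limma-voom (0.018). Other pathway genes higher in muscle, 7 as reported, numbered 14 with DESeq2, 13 with limma-voom, 11 with the replicate block, 13 with the header date as a term, 15 on the later header date only, 12 with the receptor-gene covariate and 4 to 11 with 1 library left out. Those higher in epithelium, also 7 as reported, numbered 12 with DESeq2, 11 with library size only and 6 to 8 with 1 library left out. Calls toward muscle also rose over all genes, from 6.58% to 10.1% with DESeq2, 8.21% with limma-voom, 8.27% with the block, 10.6% with the date term, 10.7% on the later date and 8.99% with the covariate. In either direction, 10.7% were called as reported and 18.3% with DESeq2. With 1 library left out the share ran from 5.78% (without epithelium replicate 3) to 12.8% (without muscle replicate 2). It was 6.44% without muscle replicate 1 and 6.92% without muscle replicate 3, so in these fits calls were also fewer over all genes. Without muscle replicate 2 and on the later header date alone (17.6%) the share rose. Ntrk2 still lost its call in the former and Ntrk3 in the latter. Low counts limit Gdnf (10 to 52 in the epithelial libraries) and Ret (8 to 82 in the muscle libraries).

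The shared replicate numbers were checked for pairing. Deviations from the group means correlated at 0.57, 0.66 and -0.42 for numbers 1, 2 and 3. The check cannot decide pairing, because the deviations within a group cancel out, so the values are not independent. Both libraries numbered 2 also share a header date. The reported fit took no pairing. The replicate block gave 4 members toward muscle and 1 toward epithelium.

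Changes of sign (log2 fold change) came only in 5 named genes that passed nowhere. With 1 library left out, Sort1 ran from -0.37 to 0.05, Pspn from -0.79 to 0.55, Gfra3 from -0.52 to 0.84, Sox10 from -0.89 to 0.51 and Elavl4 from -0.30 to 0.15. Pspn was at 0.06 with the replicate block and 0.06 on the later header date. Gfra3 was at 0.47 with limma-voom, 0.02 with the block, 0.24 with the header date as a term, 0.74 on the later date and 0.53 with the receptor-gene covariate. Sox10 was at 0.08 with limma-voom. Elavl4 was at 0.14 with limma-voom and 0.14 with the covariate.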
